A study of Homo sapiens with 20 samples.

Results

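The proapoptotic members of the BCL2 family were followed in U937T cells, a subline of the human myeloid leukemia line U937, after induction of the transcription factor EVI1. The 10 genes considered were BMF, BCL2L11, BBC3, PMAIP1, BID, BIK, HRK, BAD, BAX and BAK1. Members were taken as every probe set of the Affymetrix HG-U133 Plus 2.0 array whose only gene symbol in the array annotation is one of these genes. A probe set is a group of short probes that together report 1 RNA level. This rule gave 25 of the 54675 probe sets, namely 7 for BCL2L11, 5 for HRK, 3 each for BID and BAD, 2 each for BAX and PMAIP1, and 1 each for BMF, BIK and BAK1. For BBC3, the only probe set carries several symbols, so that 9 of the 10 genes were measured. All 25 probe sets passed the intensity filter, which asks that the log2 intensity average 3 or more in every 1 of 6 sets of cultures, and 7 of them averaged under 5 in at least 1 of these sets (4 of HRK and 1 each of BAD, BCL2L11 and BIK).

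Clones E10 and E14 carry an HA-tagged human EVI1 cDNA that is repressed while tetracycline (tet) is present and is induced when tet is withdrawn. After washing they were grown without or with tet, and RNA was taken at 6, 12, 24 and 48 h. The control lines were the empty vector clone P2 (U937T_vec) and parental U937T cells, cultured without or with tet for 48 h. All lines were kept in tet and puromycin before the experiment, and E10, E14 and P2 but not U937T also in hygromycin. Each line, time and condition was hybridized to 1 array, 20 arrays in all, so that E10 and E14 were replicates of each other, as were P2 and U937T, and p-values measure only the spread between these cultures. E10, E14 and P2 are single clones. A change in the RNA of each cell and a change in the share of cells that express a gene cannot be told apart in such bulk samples.

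BCL2 family proteins decide whether a cell permeabilizes its outer mitochondrial membrane, the step that releases cytochrome c and starts the caspase cascade. BAX and BAK1 are the effectors that form pores in this membrane. Prosurvival proteins such as BCL2, BCL2L1 (BCL-XL) and MCL1 hold the effectors back, and the BH3-only proteins, named after the single homology motif they share with the family, relieve this restraint or activate the effectors directly. BCL2L11 (BIM), BBC3 (PUMA) and BID bind nearly all prosurvival proteins, whereas BMF, PMAIP1 (NOXA), HRK, BIK and BAD are more selective. Many BH3-only genes are controlled at the level of transcription, for example by FOXO factors, and in myeloid cells BCL2L11, PMAIP1 and BMF are known mediators of death after cytokine loss or drug treatment.

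Levels are given as log2 intensities after Robust Multi-array Analysis (RMA). The median of an array lay between 5.25 and 5.35, and levels of different probe sets cannot be compared with each other because probes differ in affinity. A response is the log2 level without tet minus that with tet, averaged over both lines, and a probe set was called where its adjusted p was under 0.05 (limma, Benjamini-Hochberg over 35610 probe sets). The EVI1-specific response is the response of the EVI1 clones at 48 h minus that of the control lines at 48 h. It therefore shares its arrays with both, and the 3 comparisons are not independent of each other.

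The induction was checked on MECOM, the gene of EVI1. Without minus with tet, its probe set 221884_at differed by 1.38, 2.44, 2.38 and 3.38 in E10 and by 1.55, 2.86, 2.26 and 2.82 in E14 at 6, 12, 24 and 48 h. The difference was -0.99 in P2 and 0.05 in U937T, so that this probe set rose in both clones and in neither control line. With tet it lay at 7.06 to 7.34 in the clones, against 6.90 in P2 and 6.48 in U937T at 48 h. Whether the clones expressed some EVI1 with tet was not tested. The other 4 probe sets of MECOM lay at 2.38 to 3.68 on all arrays, far below the array medians, and differed by -0.42 to 0.61 between cultures of the same line and time. Of 8 markers of myelomonocytic cells, 7 were measured. LYZ, SPI1, ITGB2, PTPRC, CEBPA and CD4 lay at 8.85 or above on every array, whereas MPO, an enzyme of early granules, stayed at 4.43 to 5.33. The controls for actin and GAPDH gave a log2 excess of 3′ over 5′ signal, which grows as RNA is degraded, of 0.19 to 1.52 (median 0.71). It was highest in E14 at 24 h, 1.40 without and 1.52 with tet.

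Of the 25 probe sets, 11 were called in the EVI1 clones at 48 h, 4 higher (BMF, both of BAX and 1 of PMAIP1) and 7 lower (4 of HRK and all 3 of BID). Over all 35610 probe sets tested at 48 h, 24.6% were called, 13% higher and 11.5% lower, against 44% of the members. Without E10 the members called were 2 higher and 3 lower (1636 and 1624 of all probe sets), and without E14 likewise 2 and 3 (1707 and 1221). At 24 h, 10 were called, 1 higher (BMF) and 9 lower (all 5 of HRK, 2 of BID and 2 of BCL2L11), which is 40% of the members against 11.7% of all probe sets (5.39% higher and 6.34% lower). At this time 1 member was called higher and 1 lower without E10 or once the E14 arrays of 12 and 24 h were dropped, and 1 higher and 0 lower without E14. At 6 h and at 12 h none of the 25 was called by limma and 1 at each time had an unadjusted p under 0.05. How many of all probe sets passed this unadjusted threshold was not counted. Over all probe sets 0% were called at 6 h and 0.0225% at 12 h (0.014% higher and 0.00842% lower). Among the control lines 2 were called, both lower and both of HRK (8% of the members against 5.92% of all probe sets, 3.31% higher and 2.61% lower). In the EVI1-specific response 3 were called, BMF higher and 2 of HRK lower (12% of the members against 2.95% of all probe sets, 1.38% higher and 1.57% lower). From 24 to 48 h the response of 3 changed, upward for BMF and 1 of BAX and downward for 1 of HRK (12% of the members against 1.63% of all probe sets, 1.01% higher and 0.621% lower). The median response of the 25 probe sets was -0.36 at 24 h, -0.08 at 48 h, -0.17 in the control lines and -0.04 in the EVI1-specific response, beside medians of 0.01, -0.03, -0.02 and -0.01 over all probe sets. Several probe sets carry the same gene symbol. The members called at 48 h thus stand for 5 genes and those at 24 h for 4. Those of the EVI1-specific response stand for 2 genes and those of the control lines for 1. With 1 probe set per gene, 3 of 9 members were higher and 2 lower at 48 h, against 2854 and 2623 of 17860 genes. At 24 h it was 1 and 3, against 1423 and 1636. In the EVI1-specific response it was 1 and 1, against 434 and 541, and in the control lines 1 and 1, against 966 and 946.

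BMF and HRK changed in opposite directions after tet withdrawal, and BAX carries the binding motif of MYC in several copies, so the 250 bases before the transcription start of these 3 genes are shown. They are RefSeq promoters of assembly GRCh38.p14, printed 5′ to 3′ on the strand of the gene, for BMF (first of 2 starts) at chr15:40108880-40109129 on the minus strand, for HRK at chr12:116881442-116881691 on the minus strand, and for BAX at chr19:48954625-48954874 on the plus strand. Capitals mark matches to the letters searched.
BMF: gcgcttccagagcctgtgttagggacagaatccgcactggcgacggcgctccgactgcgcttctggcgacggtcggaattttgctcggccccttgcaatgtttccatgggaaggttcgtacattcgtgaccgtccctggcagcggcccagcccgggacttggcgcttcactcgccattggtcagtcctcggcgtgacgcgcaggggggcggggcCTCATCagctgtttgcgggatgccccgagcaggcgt
HRK: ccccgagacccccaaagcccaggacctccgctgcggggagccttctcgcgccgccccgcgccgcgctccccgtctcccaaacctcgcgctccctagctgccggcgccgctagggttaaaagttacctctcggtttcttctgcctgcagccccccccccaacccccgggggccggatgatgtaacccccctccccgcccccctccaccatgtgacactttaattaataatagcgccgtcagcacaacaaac
BAX: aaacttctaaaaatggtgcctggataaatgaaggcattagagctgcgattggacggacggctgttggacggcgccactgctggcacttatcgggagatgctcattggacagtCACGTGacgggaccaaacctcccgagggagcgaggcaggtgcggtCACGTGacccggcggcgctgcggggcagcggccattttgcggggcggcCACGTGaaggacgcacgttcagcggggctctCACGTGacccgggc
Searched on both strands were AAGATA and GATGAG, the cores recognized by the first and the second zinc finger domain of EVI1, the E-box CACGTG of MYC and MAX, which reads the same on both strands, and the FOXO site GTAAACA. Over 35114 RefSeq promoters of the same length, AAGATA was found in 7.17%, GATGAG in 10.1%, CACGTG in 6.35% and GTAAACA in 2.98%. Of the members, 9 have a promoter in this table, with 15 starts in all. At its first start BMF holds 1 GATGAG, written CTCATC on the gene's strand, that begins 36 bases before it, and the second start holds none of the letters searched. BAX holds CACGTG 4 times, beginning 138, 93, 45 and 14 bases before the start, a number reached by 5 of the 35114 promoters. BAX was picked for these copies, so that this rarity is no test. HRK holds none of the letters searched. Elsewhere, BCL2L11 holds GTAAACA 223 bases before its start, BBC3 holds CACGTG at 232, and 2 of 5 starts of BID share 1 CACGTG, at 106 or at 47 bases. No 2 of these matches overlap within a promoter. A match is a description of the letters and was not tested as a binding site.

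BMF encodes a BH3-only protein that is held at the actin-bound motor complexes of the cell through a dynein light chain and moves to BCL2 after release. Its level in E10 was 6.96, 6.95, 7.75 and 8.96 without tet, against 7.03, 6.70, 6.71 and 6.89 with tet, at 6, 12, 24 and 48 h. In E14 it was 7.25, 7.03, 7.98 and 9.20 without tet, against 7.22, 6.99, 6.37 and 6.75 with tet. P2 and U937T are read at 48 h, where it was 7.59 in P2 and 7.31 in U937T without tet, against 7.09 in P2 and 6.86 in U937T with tet. The 6 highest of the 20 arrays were thus the 48 h and then the 24 h cultures of both clones without tet, followed by P2 and U937T without tet, and the remaining 14 arrays lay between 6.37 and 7.25. The order between P2 and U937T, and between E14 and E10 within a time, rests on 1 array each.

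The response of BMF was 1.32 at 24 h (standard error, SE, 0.15; limma adjusted p = 8.4e-05) and 2.27 at 48 h (SE 0.15, limma adjusted p = 2.8e-07), a 4.81-fold higher level without tet at 48 h. At 6 and 12 h the differences were -0.06 and 0.26 in E10 and 0.03 and 0.04 in E14, at a time when MECOM was already up in both clones. Without EVI1, in the control lines, BMF differed by 0.47 (SE 0.15, limma adjusted p = 0.081), which did not pass the test over all probe sets and passed it with 1 probe set per gene (adjusted p = 0.046 from limma). For BMF the clones exceeded the control lines by 1.79 (SE 0.21, limma adjusted p = 0.00063), the EVI1-specific response, that is 3.46-fold, with each clone above each control line. It was called without any 1 of the 4 lines, with adjusted p from 0.0082 to 0.043. The study itself picked BMF as regulated by EVI1 on these arrays, so these values are no independent evidence of its direction. From 24 to 48 h its response grew by 0.94 (SE 0.21, limma adjusted p = 0.041). This call was lost without E10 (adjusted p = 0.97), E14 (adjusted p = 0.64), P2 or U937T (adjusted p = 0.054 each), when the E14 arrays of 12 and 24 h were dropped (adjusted p = 0.094) and without the block for the line (adjusted p = 0.063). The calls of BMF at 24 and 48 h were kept under every alternative run.

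HRK (harakiri) encodes a BH3-only protein that binds BCL2 and BCL2L1. Its probe set 237187_at stood in E10 at 4.77, 5.03, 4.73 and 3.64 without tet, against 4.72, 5.17, 5.45 and 5.45 with tet, at 6, 12, 24 and 48 h. In E14 it stood at 5.10, 5.01, 4.66 and 3.86 without tet, against 4.77, 5.10, 5.69 and 5.76 with tet. P2 and U937T had 4.53 and 4.45 without tet, against 5.25 and 4.86 with tet. The 2 clones at 48 h without tet were the lowest of all 20 arrays, and without and with tet the levels of the clones did not overlap at 24 h or at 48 h. A second probe set, 229552_at, stood in E10 at 5.36, 5.34, 4.95 and 4.30 without tet, against 5.21, 5.37, 5.70 and 5.42 with tet, and in E14 at 5.37, 5.35, 5.15 and 4.51 without tet, against 5.21, 5.45, 5.63 and 5.32 with tet. It stood at 5.09 in P2 and 4.96 in U937T without tet, against 5.33 in P2 and 5.20 in U937T with tet. Here too the 2 clones at 48 h without tet were lowest.

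At 48 h, 237187_at had a response of -1.85 (SE 0.13, limma adjusted p = 4.5e-07), 3.62-fold lower, and 229552_at one of -0.96 (SE 0.10, limma adjusted p = 1.2e-05). From 6 to 24 h, 237187_at with tet went from 4.72 to 5.45 in E10 and from 4.77 to 5.69 in E14. Without tet it went from 4.77 to 4.73 in E10 and from 5.10 to 4.66 in E14. Neither probe set was called at 12 h. At 24 h both were lower without than with tet, with responses of -0.88 and -0.61 (adjusted p = 0.00061 and 0.0014 from limma). These calls at 24 h were lost without E10 (adjusted p = 0.052 and 0.43) or E14 (adjusted p = 0.19 and 0.15), and that of 237187_at also without the 4 E14 arrays at 12 and 24 h (adjusted p = 0.076). In the control lines 237187_at was lower by 0.56 without tet (adjusted p = 0.021 from limma), and this call was lost without any 1 of the 4 lines. The EVI1-specific response was -1.29 for 237187_at (SE 0.18, limma adjusted p = 0.0022) and -0.72 for 229552_at (SE 0.14, limma adjusted p = 0.016), with each clone below each control line. The first was lost without E10 (adjusted p = 0.097) or E14 (adjusted p = 0.15), and the second without any 1 of E10, E14, P2 and U937T (adjusted p = 0.67, 0.38, 0.076 and 0.096), with only the arrays at 48 h (adjusted p = 0.13) or without the 4 E14 arrays (adjusted p = 0.072). A fit without E10 or without E14 leaves 1 residual degree of freedom.

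The other 3 probe sets of HRK differed among themselves. 206864_s_at, which has the highest mean of the 5, stood at 48 h at 5.20 in E10 and 4.95 in E14 without tet, against 6.25 in E10 and 6.48 in E14 with tet. In the control lines it stood at 5.64 in P2 and 5.39 in U937T without tet, against 6.01 in P2 and 6.19 in U937T with tet. The response was -1.29 in the clones (SE 0.13, limma adjusted p = 1.2e-05) and -0.59 in the control lines (adjusted p = 0.023 from limma, lost without any 1 of the 4 lines), and its EVI1-specific response of -0.71 was not called (SE 0.19, limma adjusted p = 0.073). That response passed with 1 probe set per gene (adjusted p = 0.038 from limma). 206865_at was called lower at 24 and at 48 h, with -0.72 and -0.58 (adjusted p = 0.031 and 0.045 from limma), and its call at 48 h was lost without E10 (adjusted p = 0.29) or E14 (adjusted p = 0.12). At 24 h it was lost without E14 (-0.30, adjusted p = 0.80) or the 4 E14 arrays (adjusted p = 0.55). Neither call passed when the 10 differences were fitted (adjusted p = 0.060 and 0.077). 206863_x_at, whose name marks probes that can also match other sequences, was called lower at 24 h (-0.62, adjusted p = 0.010 from limma) and had 0.04 at 48 h. Its call was lost without E10 (adjusted p = 0.25), E14 (adjusted p = 0.26) or the 4 E14 arrays (adjusted p = 0.16), and so was the call of 206864_s_at at 24 h (-0.93, with adjusted p = 0.11, 0.081 and 0.055). All 5 therefore had lower levels in both clones without tet at 24 h, and 4 of the 5 at 48 h. Apart from 206864_s_at, the HRK probe sets had means of 4.47 to 5.21 over the arrays, below the median of every array, a range in which RMA is known to compress differences.

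**Figure D1:**
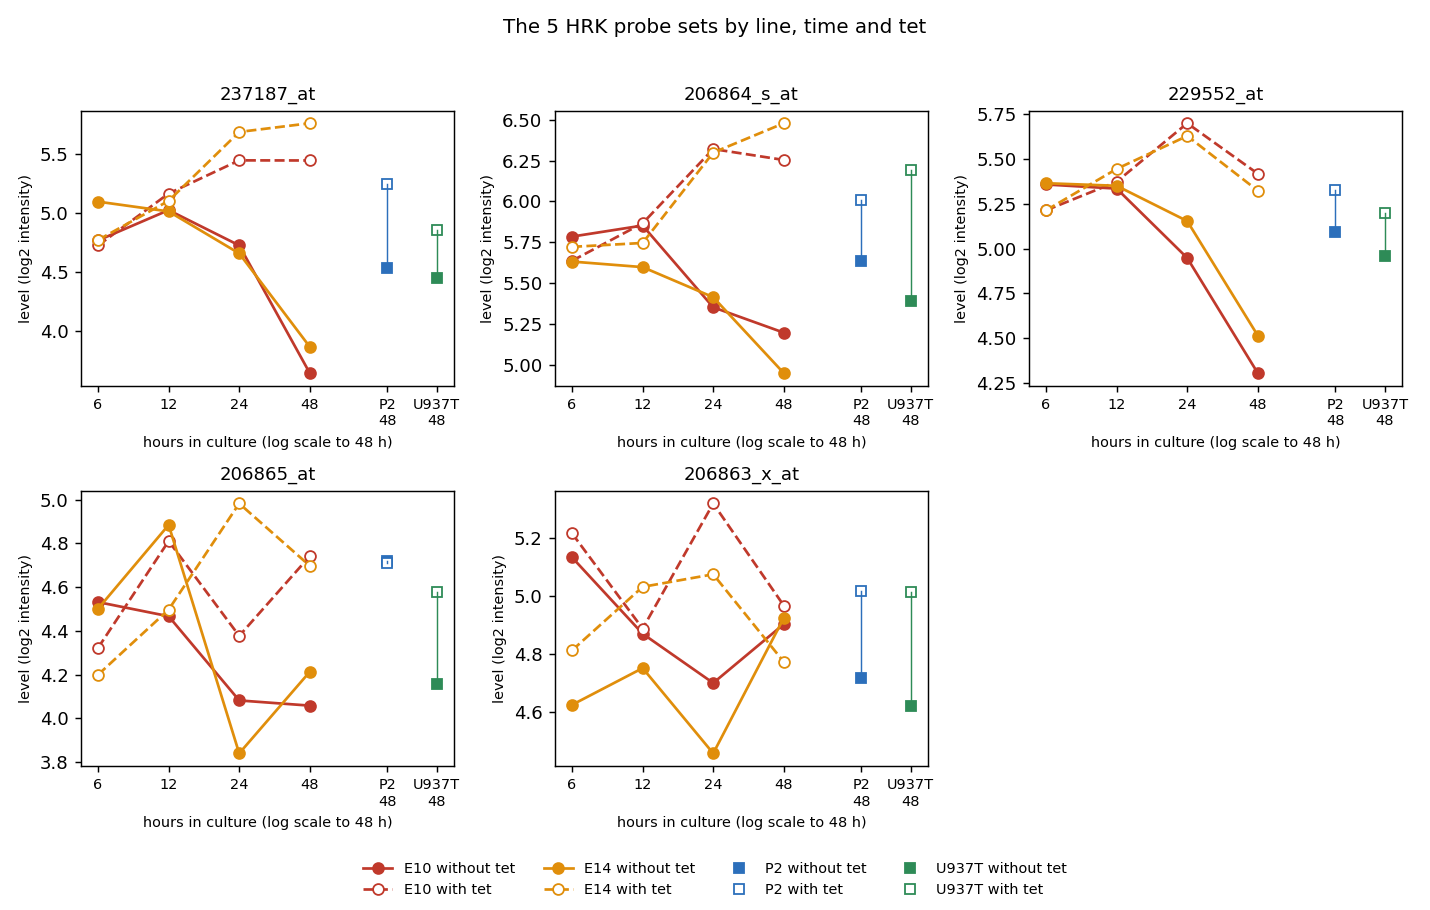
Levels (log2 intensity, y axes with their own ranges) of the 5 HRK probe sets against hours in culture (x axes, log scale up to 48 h), with 1 point per array, without tet (filled) and with tet (open). For 237187_at, 229552_at and 206864_s_at the clones without tet at 48 h are lowest, whereas 206863_x_at shows no such separation at 48 h.

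Time in culture was compared in the clones while tet was present. At 48 h against 6 h, HRK 237187_at was higher by 0.86 (SE 0.13, limma adjusted p = 0.0041) and 206864_s_at by 0.69 (SE 0.13, limma adjusted p = 0.013), so that 2 of the 25 probe sets were called, both higher, against 6.19% of all probe sets (2.8% higher and 3.39% lower). Without E10 or without E14 both calls were lost (adjusted p = 0.11 and 0.13 for 237187_at, and 0.26 and 0.23 for 206864_s_at). 229552_at, the other probe set with an EVI1-specific call, differed by 0.16 (adjusted p = 0.39 from limma). In all, 11 of the 25 had an unadjusted p under 0.05 from limma. The share of all probe sets under this unadjusted threshold was not counted, so the 11 cannot be set against it. The 3′ to 5′ excess with tet was 0.19 in E10 and 0.45 in E14 at 6 h, against 0.66 and 0.74 at 48 h. With this excess in the fit, 1 member was called higher and 0 lower, against 318 and 430 of all probe sets. Time in culture and RNA quality cannot be told apart here. BID 204493_at (-0.43, adjusted p = 0.058 from limma) passed with a mean of at least 5 (adjusted p = 0.037) and with the intensity trend (adjusted p = 0.040). For 237187_at in E10, 3.64 without tet and 5.45 with tet at 48 h stand beside 4.77 and 4.72 at 6 h. From 24 to 48 h its response changed by -0.98 (SE 0.18, limma adjusted p = 0.017), a call lost without E10 (adjusted p = 0.97), E14 (adjusted p = 0.64) or the 4 E14 arrays at 12 and 24 h (adjusted p = 0.11).

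BID links death receptors to mitochondria, since caspase-8 cleaves it into an active fragment. All 3 of its probe sets were lower in both clones without tet at 24 and 48 h. 204493_at stood in E10 at 9.30, 8.87, 8.48 and 8.21 without tet, against 9.38, 9.00, 9.01 and 8.86 with tet, at 6, 12, 24 and 48 h, and in E14 at 8.95, 9.10, 8.49 and 8.22 without tet, against 9.20, 9.08, 9.06 and 8.87 with tet. P2 and U937T had 8.62 and 8.72 without tet, against 8.74 and 8.93 with tet. The clones without tet at 48 h were the lowest arrays for this probe set. 227143_s_at stood at 48 h at 8.77 in E10 and 8.74 in E14 without tet, against 9.41 in E10 and 9.43 in E14 with tet.

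The responses of BID at 48 h were -0.65 for 204493_at, -0.67 for 227143_s_at and -0.54 for 211725_s_at (adjusted p = 0.0014, 0.00018 and 0.0082 from limma), that is 1.57-fold, 1.59-fold and 1.45-fold lower. At 24 h they were -0.55, -0.62 and -0.39, of which the first and second were called (adjusted p = 0.010 and 0.00088 from limma) and the last was not (adjusted p = 0.073). 211725_s_at passed at 24 h with 1 probe set per gene (adjusted p = 0.045), a mean of at least 5 (adjusted p = 0.047), the intensity trend (adjusted p = 0.047) or the 3′ to 5′ excess in the fit (adjusted p = 0.010). In the control lines the differences were -0.17, -0.25 and -0.19, and the EVI1-specific responses of -0.48, -0.41 and -0.34 were not called (adjusted p = 0.20, 0.15 and 0.44 from limma). Every call of BID was lost without E10 or without E14, and those at 24 h also without the 4 E14 arrays (adjusted p = 0.18 and 0.11). BID was thus lower in the clones without tet, and a difference from the control lines was not detectable with these arrays.

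BAX, the cytosolic effector that inserts into the outer mitochondrial membrane on activation, was called higher in the clones without tet at 48 h and at no earlier time. 208478_s_at stood in E10 at 8.33, 8.11, 8.35 and 8.78 without tet, against 8.15, 8.15, 8.62 and 8.07 with tet, at 6, 12, 24 and 48 h. In E14 it stood at 7.90, 7.62, 8.10 and 8.66 without tet, against 7.93, 7.94, 8.22 and 8.06 with tet. P2 and U937T had 7.81 and 7.93 without tet, against 7.77 and 7.58 with tet. E10 was above E14 in 8 of 8 cultures of the same time and condition, by 0.27 on average. For 211833_s_at this was so in 6 of 8, with an average of 0.20. The response at 48 h was 0.66 for 208478_s_at (SE 0.13, limma adjusted p = 0.0016) and 0.47 for 211833_s_at (SE 0.14, limma adjusted p = 0.026). At 24 h 208478_s_at had -0.20 (adjusted p = 0.41), and from 24 to 48 h its response changed by 0.85 (SE 0.18, limma adjusted p = 0.031). Averaged over P2 and U937T, 208478_s_at differed by 0.20 and 211833_s_at by 0.31 (adjusted p = 0.45 and 0.26), and the EVI1-specific responses of 0.46 and 0.16 were not called (adjusted p = 0.24 and 0.80 from limma). All these calls were lost without E10 or without E14, and without the block for the line the change from 24 to 48 h (adjusted p = 0.15) and the response of 211833_s_at (adjusted p = 0.068) did not pass. With the block but with the E14 arrays of 12 and 24 h dropped, the change of 208478_s_at did not pass either (adjusted p = 0.22). BAK1, the effector that resides in the mitochondrial membrane, stayed between 7.37 and 7.92 on all arrays, with a response of 0.17 at 48 h (SE 0.09, limma adjusted p = 0.20) and an EVI1-specific response of 0.05 (adjusted p = 0.91 from limma).

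**Figure D2:**
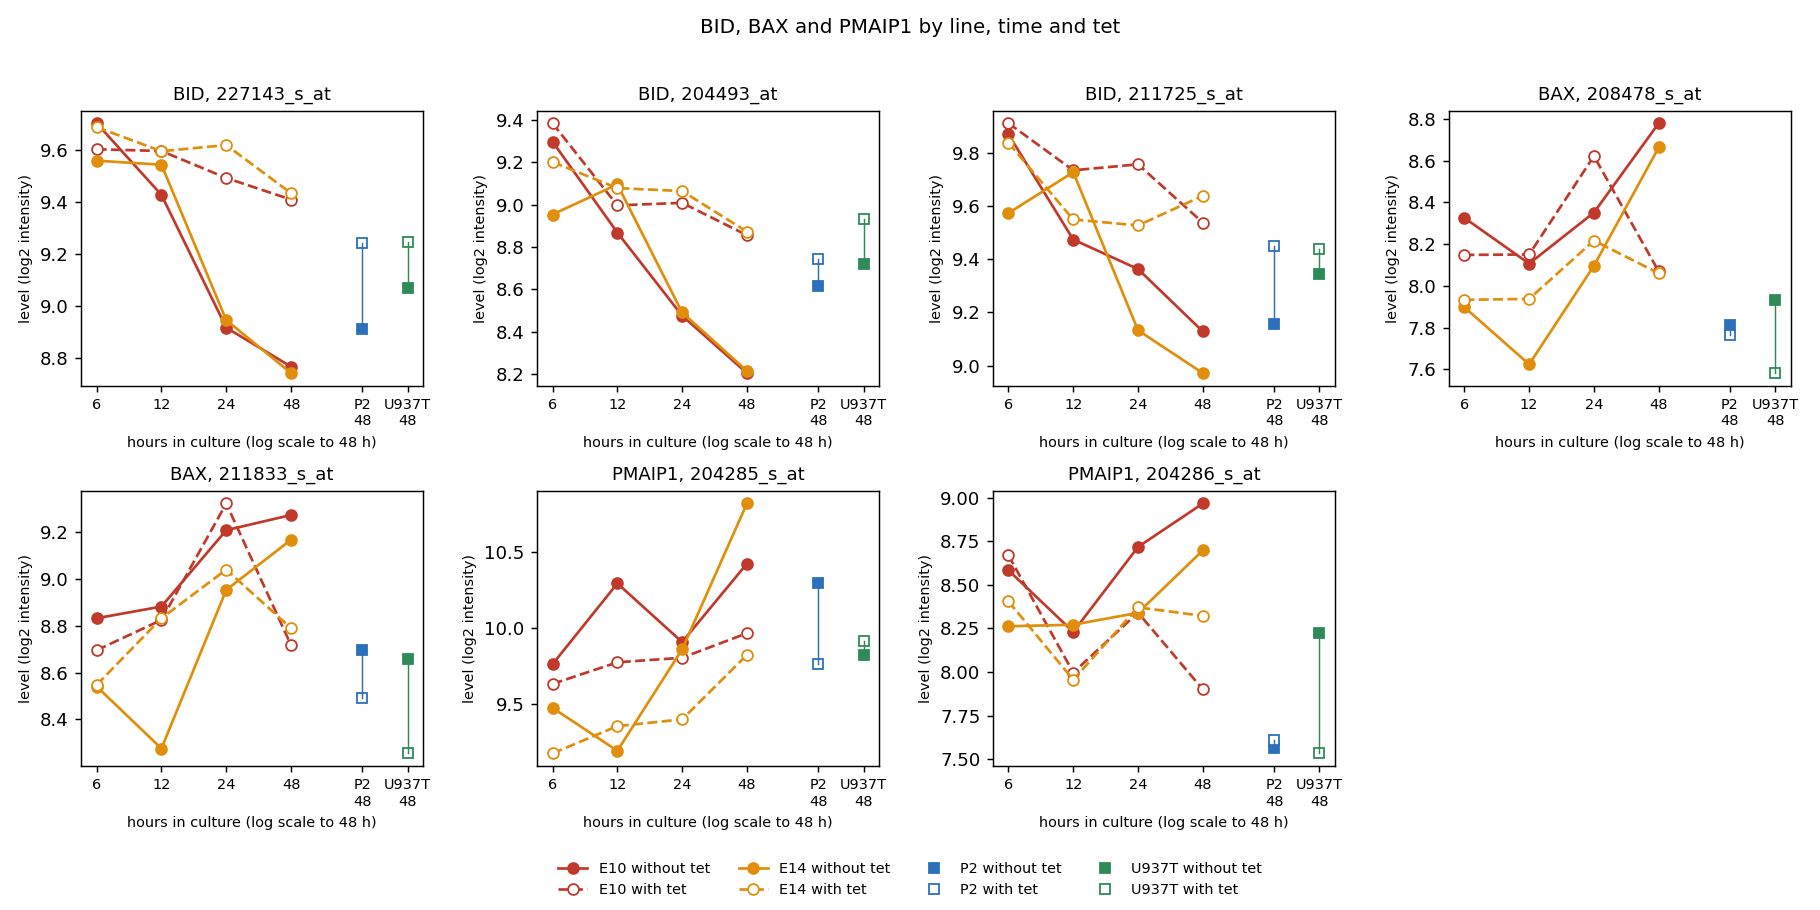
Levels (log2 intensity, y axes with their own ranges) of 3 BID, 2 BAX and 2 PMAIP1 probe sets against hours in culture (x axes, log scale up to 48 h), with 1 point per array, without tet (filled) and with tet (open). BID 204493_at falls to 8.21 in E10 and 8.22 in E14 without tet at 48 h, and BAX 208478_s_at reaches 8.78 and 8.66 there.

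PMAIP1 encodes NOXA, a BH3-only protein that neutralizes MCL1. At 48 h 204286_s_at stood at 8.97 in E10 and 8.70 in E14 without tet, against 7.90 in E10 and 8.32 in E14 with tet. In the control lines it stood at 7.56 in P2 and 8.22 in U937T without tet, against 7.61 in P2 and 7.53 in U937T with tet, so that U937T (0.69) moved further than E14 (0.38). Its response in the clones was 0.72 (SE 0.19, limma adjusted p = 0.014), a call lost without E10 (adjusted p = 0.53), and its EVI1-specific response was 0.40 (adjusted p = 0.57 from limma). The second probe set, 204285_s_at, had a response of 0.73 (SE 0.25, limma adjusted p = 0.053). It passed with 1 probe set per gene (adjusted p = 0.035), fitted differences (adjusted p = 0.025), only the arrays at 48 h (adjusted p = 0.030) or without E10 (adjusted p = 0.032), so that its side of the threshold depends on the setting. Its differences were 0.46 in E10, 1.00 in E14, 0.53 in P2 and -0.10 in U937T, so that the line with the largest difference was not the same for both probe sets.

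BCL2L11 encodes BIM, which binds all prosurvival proteins and is known for its role in the death of blood cells. At 24 h 225606_at stood at 8.71 in E10 and 8.71 in E14 without tet, against 9.17 in E10 and 9.25 in E14 with tet, and 1558143_a_at at 7.81 and 7.53 without tet, against 8.24 and 8.18 with tet. Their responses were -0.50 and -0.54 (adjusted p = 0.016 and 0.024 from limma). The other 5 probe sets had responses of -0.59 to 0.03 at 24 h and were not called, although 1555372_at (-0.59, adjusted p = 0.074) passed with only the arrays of the clones (adjusted p = 0.034) or fitted differences (adjusted p = 0.048). At 48 h none of the 7 was called, with responses from -0.47 to 0.12 (222343_at passed when the 10 differences were fitted in place of the arrays, adjusted p = 0.032). 225606_at then stood at 9.10 in E10 and 9.19 in E14 without tet, against 9.08 in E10 and 8.98 in E14 with tet. The change of its response from 24 to 48 h, 0.62 (SE 0.17), was not called (adjusted p = 0.10 from limma). The calls at 24 h were lost without E10, without E14 and without the 4 E14 arrays at 12 and 24 h. The differences at 24 h were -0.46 in E10 and -0.54 in E14 for 225606_at, and -0.43 and -0.64 for 1558143_a_at. Those E14 arrays include the highest 3′ to 5′ differences. With this excess in the fit, 1 member was called higher and 10 lower at 24 h, against 1 and 9 in the main fit. Whether RNA quality had a part in the lost calls was not tested. 1555372_at was lower in E10 than in E14 in 8 of 8 cultures of the same time and condition, by 0.40 on average. The other probe sets of BCL2L11 did not share this. E10 minus E14 averaged -0.11 for 225606_at and 0.03 to 0.30 for the rest.

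BIK and BAD did not pass any test. BIK, a BH3-only protein of the endoplasmic reticulum, lay at 4.05 to 4.53 on all arrays, below the median of every array, with an EVI1-specific response of -0.04 (SE 0.22, limma adjusted p = 0.97). BAD, which survival kinases phosphorylate and thereby tether to 14-3-3 proteins, lay at 6.67 to 7.21 for 1861_at and at 6.71 to 7.19 for 209364_at. Their responses at 48 h were 0.23 and 0.20 and their EVI1-specific responses 0.06 and 0.05, and 232660_at (4.31 to 5.10) had -0.00 and 0.35. Of the 9 measured genes, BIK, BAD and BAK1 thus had no probe set called in any of the 8 comparisons made, except that BAK1 passed for time in culture with tet (-0.29, adjusted p = 0.033 from limma) when a mean of at least 5 was asked for.

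The proteins that the members act on were taken from a list of 6 prosurvival genes. In the EVI1-specific response 1 was called higher and 1 lower, with a median of 0.12. Over all probe sets, 2.95% were called in this response. BCL2 stood at 48 h at 7.18 in E10 and 7.09 in E14 without tet, against 9.12 in E10 and 9.17 in E14 with tet, and at 8.43 in P2 and 8.42 in U937T without tet, against 8.88 in P2 and 9.26 in U937T with tet. All 4 lines were thus lower without tet, the clones more so, with differences of -1.93 and -2.08 against -0.44 and -0.84. Its EVI1-specific response of -1.37 (SE 0.21, limma adjusted p = 0.0036) was lost without E10 (adjusted p = 0.080) or E14 (adjusted p = 0.15). BCL2L1 differed by 0.80 in E10 and 0.64 in E14, against 0.18 in P2 and 0.03 in U937T, and its EVI1-specific response of 0.61 (SE 0.15, limma adjusted p = 0.040) was lost without any 1 of the 4 lines. In the response of the clones at 48 h, MCL1 (0.63) and BCL2A1 (1.30) were called higher beside BCL2L1 (0.72), and BCL2 lower (-2.01). Of all probe sets, 24.6% were called in the clones at 48 h. Neither MCL1 nor BCL2A1 was called in the EVI1-specific response. In the control lines 1 of the 6 genes was called higher and 1 lower, against 5.92% of all probe sets called in either direction.

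The remaining lists describe the surroundings of the members. Of 11 measured transcription factors known to act on BH3-only genes, 2 were higher and 2 lower in the EVI1-specific response (median -0.06). Of all probe sets, 1.38% were higher and 1.57% lower in it. MYC can bind CACGTG together with MAX. Its level at 48 h was 7.87 in E10 and 7.84 in E14 without tet. With tet it was 11.28 in E10 and 11.37 in E14. In the control lines it stood at 10.16 in P2 and 10.50 in U937T without tet, against 11.24 in both with tet. Its EVI1-specific response was -2.56 (SE 0.22, limma adjusted p = 9.8e-05). MYB (-0.82), JUN (0.89) and FOXO4 (0.70) were called as well (adjusted p = 0.012, 0.015 and 0.044 from limma), and MYB and FOXO4 were lost without any 1 of the 4 lines and JUN without E10, E14 or P2. None of 9 measured genes of the apoptosome, caspases and inhibitors of apoptosis was called in the EVI1-specific response (median -0.05). In the clones at 48 h, 4 were higher and 1 lower, against 13% and 11.5% of all probe sets. APAF1, the scaffold of the apoptosome, had a response of 1.06 there and XIAP one of 0.68. In the EVI1-specific response none was called among 11 proteins that hold members in an inactive state, such as dynein light chains and 14-3-3 proteins (median -0.07). The same held for 7 further BCL2 family and BH3-like genes (median 0.04) and 8 genes of mitochondrial dynamics (median -0.08). With 2.95% of all probe sets called in this response, lists this short may hold no call.

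Markers of other cells were read in the same comparison. Of 4 lymphoid markers, 3 were measured, and CD3E was called higher (EVI1-specific response 0.89, SE 0.17, limma adjusted p = 0.014), with 7.01 in E10 and 6.70 in E14 without tet at 48 h, against 5.67 in E10 and 5.71 in E14 with tet. The mean level over the 3 was 6.50 to 6.56 in the clones without tet and 5.92 to 6.00 with tet, and 6.16 to 6.45 in the control lines without tet and 6.26 to 6.31 with tet. CD2 lay at 4.32 to 4.98 throughout. None of the 7 myelomonocytic, 3 erythroid and megakaryocytic, or 3 epithelial and fibroblast markers was called in the EVI1-specific response, against 2.95% of all probe sets. In the clones at 48 h, 3 of the 7 myelomonocytic and 2 of the 3 lymphoid markers were higher, against 13% of all probe sets. Among the control lines 2 of the 7 myelomonocytic markers were higher, against 3.31%. The mean of the myelomonocytic markers was 10.26 to 10.30 in the clones without tet and 9.70 to 9.89 with tet, and 9.88 to 10.02 in the control lines without tet and 9.68 to 9.72 with tet. The part of these shifts in the responses of BMF and HRK was not tested. When the 3′ to 5′ excess of each array entered the fit, BMF (adjusted p = 0.00096) and the HRK probe sets 237187_at (adjusted p = 0.0029) and 229552_at (adjusted p = 0.014) kept their EVI1-specific calls in limma.

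The genes whose pattern was most like that of BMF were found by the Pearson correlation over the 10 differences without minus with tet, among 17859 genes with 1 probe set each. The 10 differences share lines and cultures and are not independent, and the correlations are descriptions. For BMF these genes were WDFY3-AS2, an antisense RNA of WDFY3 (r = 0.986), GMIP (r = 0.982), and DUSP16, a phosphatase of MAP kinases (r = 0.980). WDFY3-AS2 differed at 48 h by 1.78 in E10 and 1.86 in E14, against 0.27 in P2 and 0.54 in U937T. For HRK 237187_at they were MRPL4 and MRPS17, which encode mitochondrial ribosomal proteins, and TRIB3, a pseudokinase (r = 0.997, 0.993 and 0.987), and MRPL4 differed by -1.33 in E10 and -1.51 in E14, against -0.65 in P2 and -0.43 in U937T. For HRK 229552_at they were TRAM2, EEF2KMT, a methyltransferase, and BYSL, a ribosome assembly factor (r = 0.981, 0.981 and 0.979).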

How the data were processed

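RNA from 20 cultures was hybridized to Affymetrix HG-U133 Plus 2.0 arrays. The authors background-corrected, quantile-normalized and summarized the probes by Robust Multi-array Analysis, and the deposited values are log2 intensities, which were used as they are. The version of their software and the annotation release are not given in the sources used here. Of 54675 probe sets, 41097 carry 1 gene symbol in GEO's platform annotation, 1801 several and 11777 none, and only the first were used. The study's intensity filter left 35610 of them. It asks for an average log2 intensity of 3 or more at both 24 and 48 h in each clone. The same is asked at 48 h in each control line, and averages were taken here over both cultures.

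All arrays were fitted together with limma 3.58.1 in R 4.3.3, with 10 groups and the line as a block (8 residual and 4.73 prior degrees of freedom). Benjamini-Hochberg adjustment ran over all 35610 probe sets. An adjusted p under 0.05 was called. Compared were the responses of the EVI1 clones at 6, 12, 24 and 48 h, that of the control lines and the EVI1-specific response at 48 h, the change of the response from 24 to 48 h, and time in culture with tet. Cultures without and with tet came from the same line, which is where the pairing comes from. Across probe sets, the deviations between E10 and E14 correlated over 28 pairs of groups with a median of 0.11 (-0.22 to 0.64), and those between P2 and U937T at -0.24. The fit was also run on simulated data with independent noise and the same effect in both clones. Those data held no difference between lines in the response to tet, so they cannot tell how such differences affect the calls. Precision is limited by how few arrays there are.

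The members and gene lists were chosen with earlier results of these data known. Named were all members, MECOM, up to 4 called genes per list by the p of the EVI1-specific response (with the probe set of highest mean per gene), and the 3 genes most like each member called in it. MCL1, BCL2A1, APAF1, XIAP and single markers were named after their values were seen. Alternatives were no filter or a mean of at least 5, 1 probe set per gene, centring of each array, an intensity trend with robust estimation, no block, only the arrays at 48 h or of the clones, fitting the 10 differences, the 3′ to 5′ excess of the controls as a covariate, leaving out the 4 E14 arrays at 12 and 24 h, and leaving out each line. Promoters came from RefSeq (GRCh38.p14).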

Additional observations from a re-analysis of the deposited data

Results flagged for a closer look

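Several differences between groups passed a test of the difference itself (limma, Benjamini-Hochberg over 35610 probe sets). At 48 h the response of the EVI1 clones differed from that of the control lines by 1.79 for BMF (adjusted p = 0.00063), by -1.29 for HRK 237187_at (adjusted p = 0.0022) and by -0.72 for HRK 229552_at (adjusted p = 0.016). The response of the clones differed between 48 and 24 h by 0.94 for BMF (adjusted p = 0.041), by -0.98 for HRK 237187_at (adjusted p = 0.017) and by 0.85 for BAX 208478_s_at (adjusted p = 0.031). Of these 6, the EVI1-specific response of BMF was the one called without any 1 of the lines that enter it. No group held enough arrays for a check of single outlying arrays.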

How the results depend on the processing

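None of the 48 tested results of single probe sets changed direction under any alternative run. Among them, 495 alternative values kept their side of the threshold, 118 lost the call and 28 gained it. Of the 25 member probe sets, 10 were called at 24 h, but 4 with 1 probe set per gene, 2 once the 4 E14 arrays from 12 and 24 h were dropped, and 1 to 11 when 1 line was left out. At 48 h 11 were called, but 5 with 1 probe set per gene and 5 to 11 without 1 line. The control lines gave 2 calls, but 1 with a mean of at least 5 or without the E14 arrays, and 0 with only the arrays at 48 h or without any 1 line. The EVI1-specific response gave 3, and 1 to 2 without 1 line. The change from 24 to 48 h gave 3, but 1 with 1 probe set per gene, 0 without the E14 arrays and 0 to 2 without 1 line. Time in culture gave 2, but 1 with 1 probe set per gene or with the 3′ to 5′ covariate, and 0 to 3 without 1 line. The 1 probe set per gene setting tests fewer member probe sets by construction, and the cause of the other shifts was not tested.

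Without the block for the line, that is without the replicate pairing, 10 member probe sets were called at 24 h, 9 at 48 h, 2 in the control lines, 3 in the EVI1-specific response, 1 in the change from 24 to 48 h and 2 for time in culture. At 6 and 12 h it was 0 under every alternative run.

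Over all probe sets, the EVI1-specific counts of 490 higher and 559 lower were 172 and 158 with only the arrays at 48 h and 264 and 280 without the E14 arrays, and between 54 and 263 higher and 26 and 272 lower without 1 line. At 48 h, 4642 and 4106 were 1636 and 1624 without E10 and 1707 and 1221 without E14. The control line counts of 1178 and 930 were 593 and 263 with only the arrays at 48 h and 739 and 469 without the E14 arrays, and 243 to 503 and 99 to 199 without 1 line. At 24 h 1921 and 2258 were 407 and 455 without the E14 arrays, 282 and 292 without E10 and 318 and 230 without E14. The change from 24 to 48 h, 359 and 221, was 39 and 25 there and 9 to 337 and 2 to 201 without 1 line, and time in culture, 997 and 1208, was 318 and 430 with the covariate and 100 and 86 without E10. Fits without E10 or E14 leave 1 residual degree of freedom, and fits without P2 or U937T assume that the remaining control line varies like the clones. The arrays at 48 h alone gave no values for earlier times, the arrays of the clones alone none for the control lines, and the fitted differences none for time in culture.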
